A study of Mus musculus with 9 samples.

Results

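The 10 genes described here are the core circadian clock genes Per1, Per2, Per3, Cry1, Cry2, Arntl, Clock, Nr1d1 and Nr1d2 and the clock output gene Dbp. They were taken by symbol from a table of 14905 genes, and each of the 10 was found there. RNA came from visceral adipose tissue cells of C57BL/6 mice that a fluorescence-activated sort had taken as positive for F4/80 and CD11b, surface proteins of macrophages. There were 5 libraries from Nucb2-/- mice (KO) and 4 from wild-type mice (WT). The product of Nucb2 is nucleobindin-2, which binds calcium and is the precursor of the peptide nesfatin-1. The study's title speaks of obesity, and the name of the deposited table carries the letters HFD, the usual short form of high-fat diet, for all 9 libraries. The sample labels themselves give neither the age, the sex, the diet nor the time of day at which tissue was taken. They also do not say how the Nucb2 allele was made or that each library came from its own mouse. P-values therefore rest on the scatter among libraries, part of which may be technical. A value given as mean ± SD is over 5 KO and 4 WT libraries unless another number is named. The comparison asked whether clock transcripts differ between KO and WT macrophages, and whether single libraries differ in the profile of clock genes that changes with the time of day.

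The mammalian clock is a loop of transcription and repression that runs in most cells, macrophages included, and is set by light through the brain, by feeding and by glucocorticoids. ARNTL (also called BMAL1) and CLOCK bind E-box sequences and switch on the Per and Cry genes, whose proteins return to the nucleus and repress them, while NR1D1 and NR1D2 (REV-ERB alpha and beta) repress Arntl through ROR elements. In mouse peripheral tissues the Arntl transcript peaks at about the opposite time of day from Nr1d1 and Dbp, the Per transcripts follow Nr1d1, and Cry1 comes late, whereas Clock itself varies little. A set of tissue samples taken at different hours therefore differs in the balance of Arntl against Nr1d1, Dbp and the Per genes.

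Stretches around the start sites of 4 members show the letters through which the loop is known to act, and are printed to show which of the members carry such letters near a start site. Sequences are from RefSeq promoter windows (GRCm38.p6, gene strand, 5′ to 3′), capitals mark the searched motif, and positions count from 0 at the first transcribed base. The Per3 stretch (chr4:151044798-151044888, minus strand, positions -223 to -133) holds a pair of D-boxes, the element bound by DBP, the Cry1 (chr10:85185073-85185150, minus strand, -96 to -19) and Per1 (chr11:69098747-69098824, plus strand, -202 to -125) stretches hold an E-box, the Per1 one at a RefSeq start inside the GENCODE span of the gene, and the Arntl stretch (chr7:113207531-113207557, plus strand, 20 to 46) lies in an annotated exon and holds a ROR element.
Per3: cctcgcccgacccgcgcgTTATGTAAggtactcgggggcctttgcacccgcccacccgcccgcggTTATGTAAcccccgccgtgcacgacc
Cry1: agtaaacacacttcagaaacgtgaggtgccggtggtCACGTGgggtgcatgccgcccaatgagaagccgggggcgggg
Per1: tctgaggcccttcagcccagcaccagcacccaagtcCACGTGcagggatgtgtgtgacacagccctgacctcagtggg
Arntl: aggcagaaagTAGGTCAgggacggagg
The windows ran from 250 bases before to 50 bases after each start and covered 9 of the 10 members. The letters searched on both strands were CACGTG for the E-box, TTATGTAA or TTACGTAA for the D-box and TAGGTCA for the ROR element. The E-box was found in 2 members and in 8.09% of all 27025 genes with windows. The D-box was found in 1 member and 1.23% of genes, and the ROR element in 1 member and 2.97% of genes. The hits did not overlap each other. A match describes the letters and does not show binding in these cells.

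The deposited values are normalized counts, reads divided by 1 factor per library, and their spacing gave totals of 74937721 to 85200105 reads in 6 deeper libraries and 51148956 to 55004978 reads in 3 shallower ones, which are KO replicate 5 and WT replicates 3 and 4. Nucb2 had 1493, 1466, 1623, 1165 and 1752 normalized counts in KO replicates 1 to 5, against 4457, 4253, 5233 and 3311 in WT replicates 1 to 4. Some transcript remained in each KO library (log2 difference -1.52, limma's adjusted p = 0.00054). All 7 macrophage markers were present, and their sums ran from 1069840 to 1222270 in the KO group and from 1110390 to 1252370 in the WT group. Most of each sum was Lyz2, with means of 809546 in KO and 825447 in WT libraries. Of the 7 markers 0 passed limma's adjusted p of 0.05, and 3 had an unadjusted p under 0.05, beside 9.14% of all genes. Adgre1 (means of 91199 in KO and 106114 in WT libraries) and Fcgr1 (10015 and 14253) were lower in KO, and Itgam (23739 and 20943) was higher. Of other cell types, 5 mast cell genes summed to 1293 to 2535 in KO and 4890.2 to 8830 in WT, with Fcer1a at the floor of 1 in each KO library, 5 endothelial genes to 2368 to 5158 in KO and 1314 to 2531 in WT, and 5 mesothelial genes to 4955 to 16296 in KO and 1512 to 6806 in WT. Of the 5 mast cell genes 4 passed limma's adjusted p of 0.05, each lower in KO, beside 0.127% of all genes. Of the markers of the remaining cell types 0 passed. Fibroblast markers summed to 263548 to 410182 in the KO group and 184990 to 309465 in the WT group. Most of each fibroblast sum was Dcn, with means of 249667 in KO and 183147 in WT libraries. Of the 5 fibroblast genes 4 lay above 0, beside 52.4% of all genes, and Col3a1 lay below (log2 difference -0.03). The 4 adipocyte markers summed to 111 to 467 in the KO group and 506 to 806 in the WT group, without overlap. Of them only Lep had ranges that did not overlap (1.27 to 152 in KO, 154 to 568 in WT), as for 3.15% of all genes. The KO and WT ranges of Adipoq, Plin1 and Cidec overlapped. The sums of T cell, B cell and neutrophil markers overlapped between the genotypes. The share of clock gene reads that came from such cells was not tested, and in sorted bulk RNA fewer cells of a type and less RNA per cell cannot be told apart.

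None of the 10 clock genes differed between KO and WT past an adjusted p of 0.05 over all genes, in either direction (0 of 10 in limma, adjusted p between 0.49 and 0.99). The table as a whole had 46 genes past that threshold, or 0.309%, with 0.181% higher and 0.127% lower in KO. Of the members 7 lay above 0 and 3 below, beside 52.4% of all genes above 0, with a median log2 difference of 0.06 beside 0.02 over all genes tested. At an unadjusted p of 0.05, limma took 2 of the 10, against 9.14% of all genes. These were Clock on the higher side, as for 5.37% of all genes, and Per1 on the lower side, as for 3.78%. Limma-voom took 1 of the 10 at that level. Exact permutation tests of each member alone, two-sided, unadjusted and added after the values were seen, gave p under 0.05 for 2 of 10, Clock and Dbp, against 8.25% of all genes. They gave 0.087 for Per1, 0.13 for Per2, 0.17 for Per3, 0.39 for Cry1 and 0.86 to 0.97 for Nr1d1, Arntl, Nr1d2 and Cry2. The KO and WT ranges overlapped for each of the 10, while 469 genes of the table (3.15%) had ranges that did not overlap. The log2 differences were on the log2(value + 1) scale, and their 95% intervals were wide for the low members, spanning -3.25 to 0.21 for Per2 and -0.60 to 2.14 for Dbp.

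**Figure D1:**
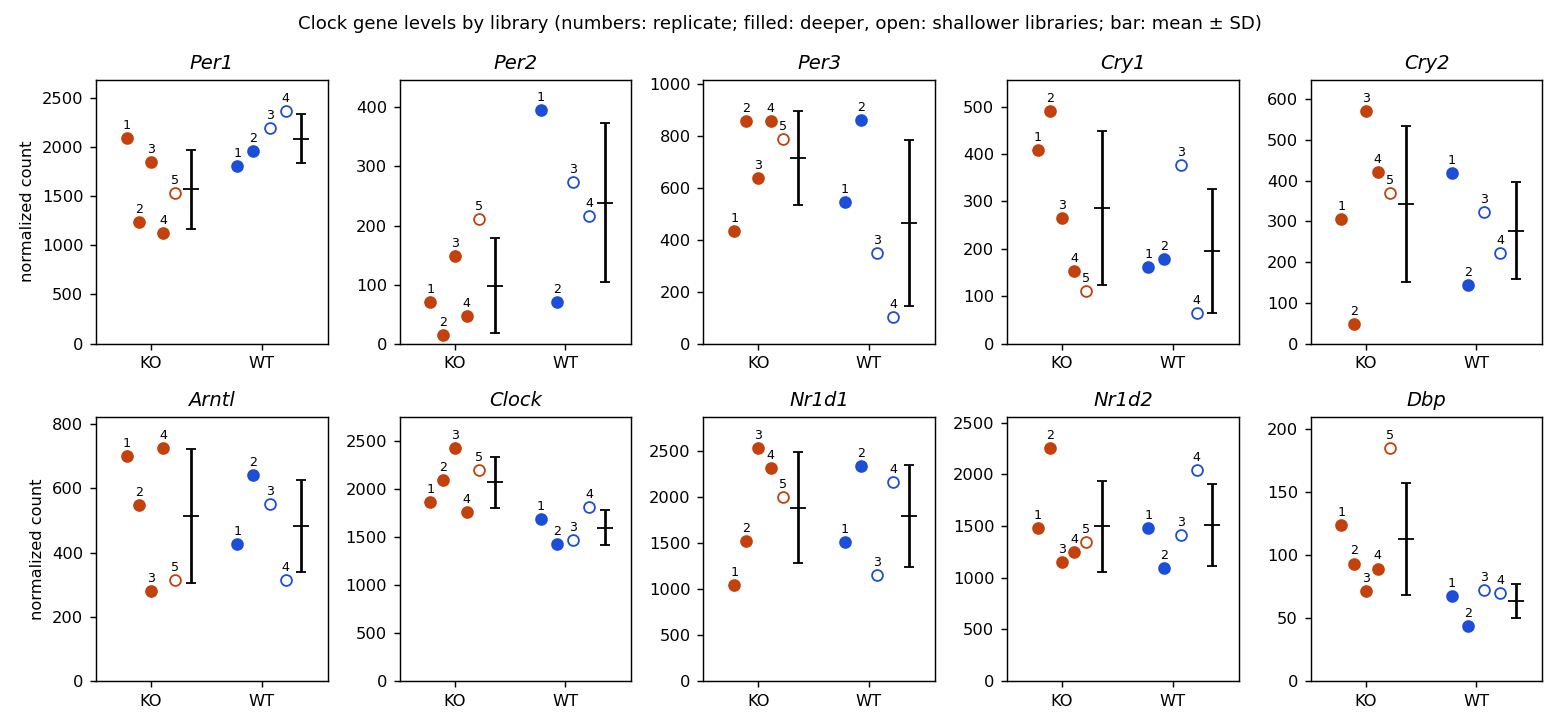
Normalized count (vertical axes, from 0) of each clock gene in the 5 KO libraries (orange, left) and the 4 WT libraries (blue, right), with replicate numbers, open points for the 3 shallower libraries and the mean ± SD in black. The KO and WT points overlap in each panel, although 4 of 5 KO points for Clock and for Dbp stand above the highest WT point.

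Arntl encodes the activator whose loss stops the clock, and its KO and WT values overlapped widely. It had 701, 549, 279, 725 and 316 normalized counts in KO replicates 1 to 5, against 426, 641, 550.3 and 314 in WT replicates 1 to 4. Low and high libraries occurred in each group, with KO replicates 3 and 5 and WT replicate 4 the lowest and KO replicates 1 and 4 and WT replicate 2 the highest. The means were 514 ± 209 in KO libraries and 483 ± 143 in WT libraries. The log2 difference was 0.03 (SE 0.38), and its 95% interval of -0.78 to 0.85 leaves room for an unseen change in either direction. In mm10 the gene spans 113207465 to 113314126 on chromosome 7.

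Clock, the histone acetyltransferase partner of ARNTL, had the narrowest spread of the 10. Its normalized counts were 1868, 2095, 2425, 1762 and 2194 in KO replicates 1 to 5, against 1684, 1431, 1466 and 1809 in WT replicates 1 to 4. Of the 5 KO libraries 4 exceeded every WT library, and KO replicate 4 lay below WT replicate 4. The mean was 2069 ± 264 in KO libraries and 1597 ± 179.9 in WT libraries (log2 difference 0.37, SE 0.16, fold 1.29 with a 95% interval of 1.02 to 1.63), and the difference did not pass over all genes (limma's adjusted p = 0.49). Within the 6 deeper libraries the difference was 0.38 (limma's adjusted p = 0.73). Its own exact permutation p was 0.032, unadjusted.

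Nr1d1 and Nr1d2 encode the heme-binding nuclear receptors that repress Arntl and form the loop's stabilising arm. Nr1d1 had 1047, 1517, 2530.2, 2319.7 and 2004 normalized counts in KO replicates 1 to 5, against 1507, 2338, 1156 and 2159 in WT replicates 1 to 4. The WT values lay inside the KO range, with means of 1884 ± 603 in KO libraries and 1790.3 ± 553 in WT libraries (log2 difference 0.06, SE 0.27; fold 1.04, 95% interval 0.703 to 1.55; limma's adjusted p = 0.96). Nr1d2 had 1478, 2252, 1153, 1252 and 1347 normalized counts in KO replicates 1 to 5, against 1484, 1090.3, 1411 and 2042 in WT replicates 1 to 4. The 9 values were interleaved, with means of 1496 ± 439 in KO libraries and 1507 ± 396 in WT libraries (log2 difference -0.02, SE 0.23; limma's adjusted p = 0.99). KO replicate 2 was the highest library for Nr1d2 and below the KO mean for Nr1d1, so the paralogues were not both high in that library. Nr1d1 (chromosome 11, 98767932 to 98775333, minus strand) overlaps 1075 bases of Thra on the opposite strand. Thra stood at 376 ± 64.3 in KO libraries and 318 ± 95.6 in WT libraries, and the libraries were made strand-specific, while whether counting used strand is not given in the sources used here.

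Dbp, a PAR bZIP transcription factor with one of the widest daily swings of the known clock outputs, was among the lowest members. It had 124, 93.1, 71.5, 89.2 and 185 normalized counts in KO replicates 1 to 5, against 67.6, 43.4, 72.1 and 69.6 in WT replicates 1 to 4, which corresponds to 47 to 145 reads per library. Of the 5 KO libraries 4 lay above each WT library, and KO replicate 3 lay just below WT replicate 3. The means were 112 ± 44.5 in KO libraries and 63.2 ± 13.3 in WT libraries. The log2 difference of 0.77 (SE 0.64) did not pass (limma's adjusted p = 0.76), and it was 0.76 in the 6 deeper libraries (limma's adjusted p = 0.80). Limma takes part of its error from genes of the same level, whose median SD within groups was 1.33 on the log2 scale, while the SD of Dbp was 0.45. The exact permutation p of Dbp alone was 0.024, unadjusted, where 0.0079 is the smallest p that 5 and 4 libraries allow. The gene overlaps 737 bases of Sphk2 on the opposite strand, which stood at 1126 ± 360.4 in KO libraries and 1261 ± 194 in WT libraries.

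The 3 Period genes, which encode the repressors that carry time through the cycle and of which Per1 and Per2 also respond quickly to outside signals, had differences in both directions, none of which passed. Per1 had 2092, 1240.3, 1848, 1123 and 1535 normalized counts in KO replicates 1 to 5, against 1809.9, 1962, 2198 and 2367 in WT replicates 1 to 4. Of the 5 KO libraries 3 lay under the lowest WT library, and KO replicates 1 and 3 lay within the WT range (means 1567 ± 406 in KO libraries and 2084 ± 247 in WT libraries). The log2 difference was -0.44 (SE 0.20, 95% interval -0.86 to -0.02, limma's adjusted p = 0.52), and -0.31 within the 6 deeper libraries.

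Per2 was the most variable member. It had 69.8, 15.2, 148, 46.5 and 211 normalized counts in KO replicates 1 to 5, against 395, 70.1, 273 and 216 in WT replicates 1 to 4, or 18 to 432 reads per library. All 5 KO libraries lay below the WT mean, although WT replicate 2 was close to KO replicate 1. The means were 98.1 ± 80.03 in KO libraries and 238 ± 135 in WT libraries, a log2 difference of -1.52 (SE 0.81) that did not pass (limma's adjusted p = 0.61). The difference ran from -2.03 to -0.99 with 1 library left out, the latter without KO replicate 2. At these read numbers counting error alone would give a coefficient of variation of 8.06%, against 81.5% among the KO libraries and 56.6% among the WT libraries.

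Per3, a Period gene with D-boxes in its promoter stretch that the loop can run without, lay the other way. Its normalized counts were 433, 859, 639.9, 857 and 789 in KO replicates 1 to 5, against 545, 862, 349 and 104 in WT replicates 1 to 4. The 2 shallower WT libraries were the lowest of the 9, and WT replicate 2 the highest, while the shallower KO replicate 5 was at 789. The log2 difference was 0.94 (SE 0.49, limma's adjusted p = 0.60). It ran from 0.34 to 1.36 with 1 library left out, the former without WT replicate 4, and within the 6 deeper libraries it was -0.03. Per3 lies inside the annotated span of Camta1 on the same strand, a gene that stood at 499 ± 135 in KO libraries and 301 ± 39.1 in WT libraries, and how reads in shared bases were assigned is not given in the sources used here.

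**Figure D2:**
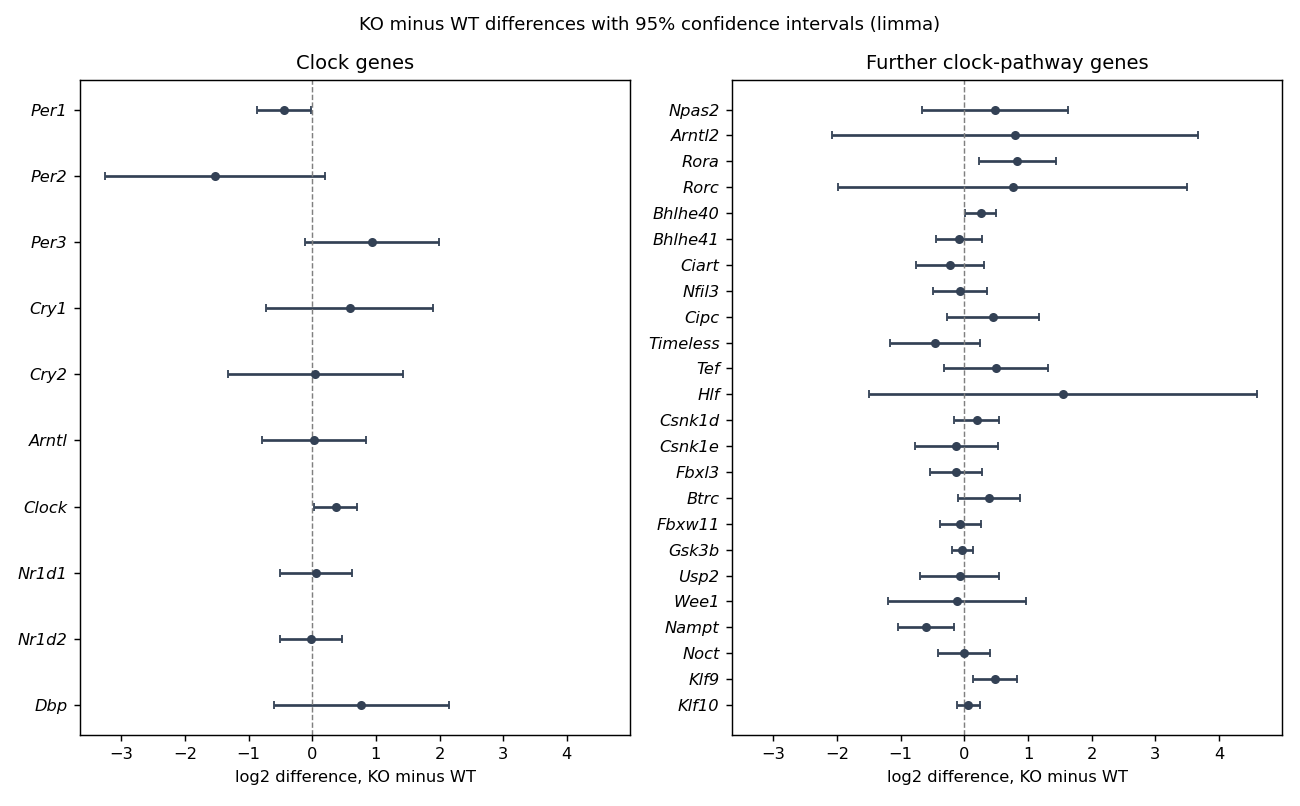
Log2 difference, KO minus WT, with the 95% confidence interval from limma (horizontal axes) for the 10 clock genes (left) and 24 further clock-pathway genes (right), with a dashed line at 0. The intervals of Per1, Clock, Rora, Bhlhe40, Nampt and Klf9 leave out 0 before adjustment, and none of the 34 genes passed after it.

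The cryptochrome genes, whose products are the stronger repressors of ARNTL and CLOCK, were spread widely inside each group. Cry1 had 409, 491, 265, 153 and 111 normalized counts in KO replicates 1 to 5, against 162, 178, 377 and 65.5 in WT replicates 1 to 4 (log2 difference 0.59, SE 0.62, limma's adjusted p = 0.81). The high libraries were KO replicates 1 and 2 and WT replicate 3, and the low ones KO replicate 5 and WT replicate 4. The difference depended on single libraries, at 0.34 without KO replicate 2, 0.99 without WT replicate 3 and 0.15 without WT replicate 4. Cry2 had 307, 48.3, 572, 421 and 369 normalized counts in KO replicates 1 to 5, against 419, 144, 324 and 222 in WT replicates 1 to 4. It averaged 343 ± 192 in KO libraries and 277 ± 119.7 in WT libraries (log2 difference 0.05, SE 0.65, limma's adjusted p = 0.99). KO replicate 2 was the lowest library for Cry2 and KO replicate 3 the highest, and without KO replicate 2 the log2 difference was 0.66.

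Single libraries stood far from the mean for single members, in both genotypes. KO replicate 2 was lowest of the 9 for Per2 and Cry2, at -2.79 and -2.42 from the gene's mean on the log2 scale, and highest for Cry1 (1.25) and Nr1d2 (0.62). WT replicate 4 was lowest for Per3 (-2.31) and Cry1 (-1.63) and highest for Per1 (0.44). KO replicate 3 was lowest for Arntl (-0.75) and highest for Nr1d1 (0.52), Cry2 (1.12) and Clock (0.40). KO replicate 1 had the lowest Nr1d1 (-0.75) with Arntl at 0.57, and in KO replicate 4 and WT replicate 2 both genes lay above their means.

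**Figure D3:**
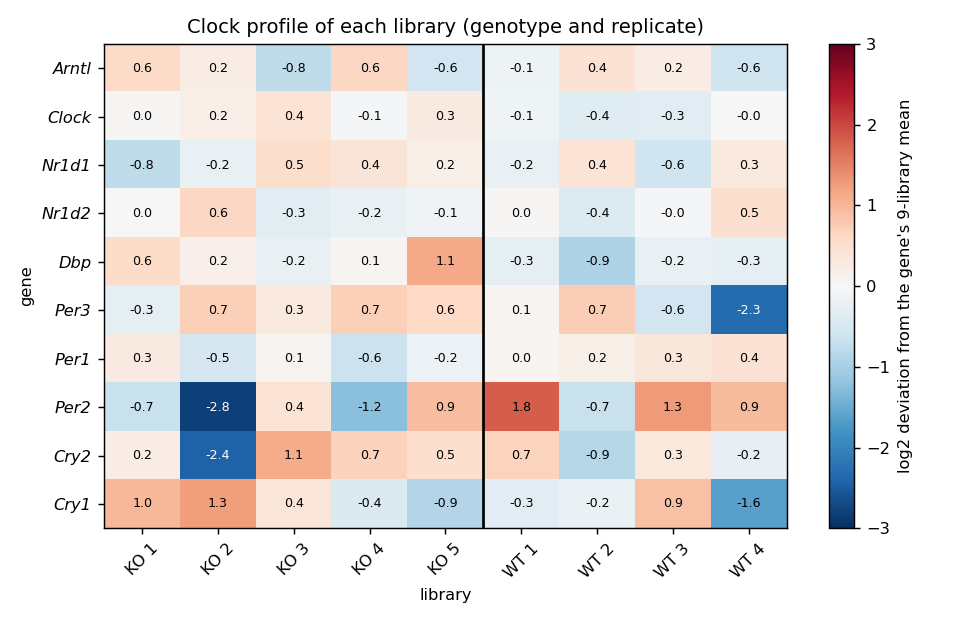
Log2 deviation of each clock gene (rows, placed in the order in which the known clock runs from its activators to Cry1) from its own mean over the 9 libraries (columns, KO replicates 1 to 5 and then WT replicates 1 to 4), red above and blue below. The largest deviations are those of Per2 and Cry2 in KO replicate 2 (-2.79 and -2.42) and of Per3 in WT replicate 4 (-2.31).

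Ratios within a library do not depend on its scaling and show the balance of the 2 arms. The normalized count of Nr1d1 per count of Arntl was 1.49, 2.76, 9.06, 3.20 and 6.35 in KO replicates 1 to 5, against 3.54, 3.65, 2.10 and 6.88 in WT replicates 1 to 4. The WT range lay inside the KO range, and the ratio varied 6.06-fold among KO libraries and 3.28-fold among WT libraries. The libraries with the highest ratios were those with the lowest Arntl, namely KO replicate 3, WT replicate 4 and KO replicate 5. Arntl is the divisor of the ratio, so a low Arntl raises it by arithmetic alone. Dbp per Arntl was 0.177, 0.169, 0.256, 0.123 and 0.585 in KO replicates 1 to 5, against 0.159, 0.0676, 0.131 and 0.222 in WT replicates 1 to 4, so KO replicate 5 stood above the other 8. These ratios combine members chosen with earlier results known and are given as a description, without a test.

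**Figure D4:**
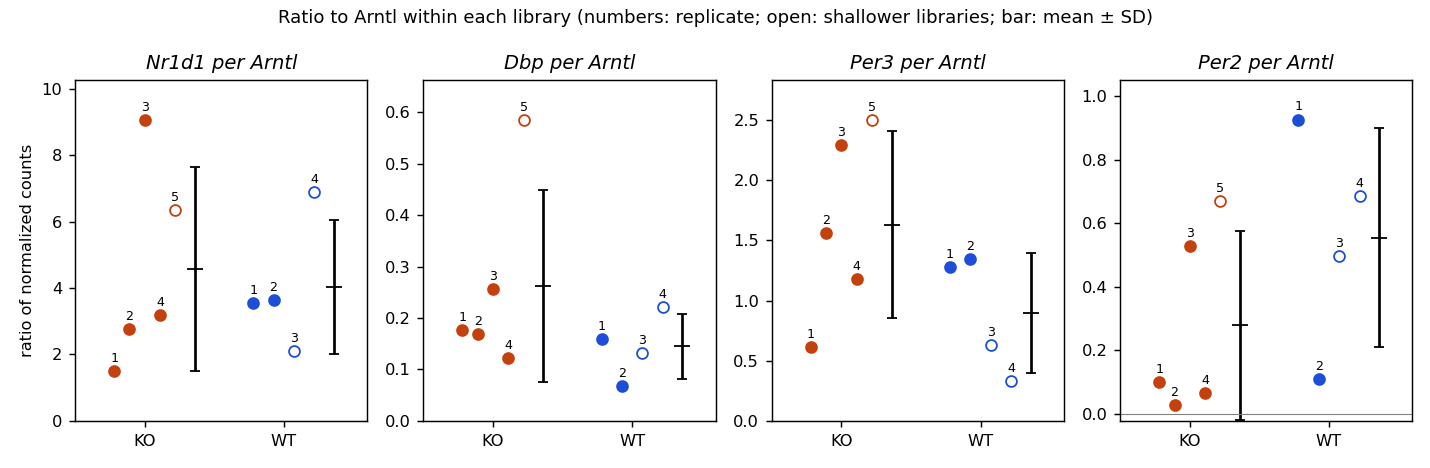
Ratio of the normalized counts of Nr1d1, Dbp, Per3 and Per2 to that of Arntl in the same library (vertical axes) in the 5 KO libraries (orange, left) and the 4 WT libraries (blue, right), with replicate numbers, open points for the 3 shallower libraries and the mean ± SD in black. For Nr1d1 the 4 WT ratios, 2.10 to 6.88, lie inside the KO range of 1.49 to 9.06.

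Pairs of members with a known phase relation were compared across the 9 libraries on the log2 scale, 5 pairs in all, and none passed. Arntl and Nr1d1, opposite in phase in the known clock, had a Pearson r of -0.41 (exact two-sided permutation p = 0.26, adjusted over the 5 pairs 0.66) and a Spearman rho of -0.30 (p = 0.44, adjusted 0.73, exact permutation). Without the 2 libraries farthest from the median of Arntl the r was -0.09, and in the 6 deeper libraries -0.33. Arntl and Dbp had r = -0.13 (exact permutation p = 0.73, adjusted 0.73) and rho = 0.17 (p = 0.68, adjusted 0.85), with r = -0.45 without the 2 farthest libraries and 0.24 in the deeper ones.

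Dbp and Nr1d1, which run close to each other in the known clock, had r = -0.27 (exact permutation p = 0.49, adjusted 0.73) and rho = -0.40 (p = 0.29, adjusted 0.73), with -0.26 without the 2 farthest libraries and -0.66 in the deeper ones. Dbp and Per3 had r = 0.15 (exact permutation p = 0.67, adjusted 0.73) and rho = 0.02 (p = 0.98, adjusted 0.98), with 0.02 without the 2 farthest and -0.46 in the deeper libraries. Per1 and Per2 had the largest r, 0.62 (exact permutation p = 0.075, adjusted 0.38), with rho = 0.50 (p = 0.18, adjusted 0.73). It was 0.59 in the deeper libraries. Without the 2 libraries farthest from the median of Per1, KO replicates 2 and 4, which held its 2 lowest values, it was -0.13. Leaving out KO replicate 2 alone gave 0.43, and KO replicate 4 alone 0.57. On deviations from the group means, r was -0.42 for Arntl and Nr1d1, -0.22 for Arntl and Dbp, -0.44 for Dbp and Nr1d1, -0.32 for Dbp and Per3 and 0.42 for Per1 and Per2. On these deviations the r of Per1 and Per2 was 0.54 without the 2 libraries farthest from the median of Per1. There the rho of Dbp and Nr1d1 was -0.73 (permutation p = 0.031, adjusted over the 5 pairs 0.16), which did not pass. That p is approximate, because the centred values were permuted across both genotypes and not within each. The 3 shallower libraries were too few for values of their own.

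The spread between libraries of a group was set against that of all genes, as a check on whether libraries of 1 genotype were alike in clock genes. The median SD within groups of the 10 members was 0.53 on the log2 scale, and 0.48 over all 14905 genes. Each member was also set beside the genes within 0.5 log2 of its own mean. Among them 8 of 10 members had an SD above the median of those neighbours. Per3 (0.91, above 94.9% of its neighbours), Nr1d1 (0.50, above 92.9%) and Cry2 (1.15, above 89.9%) were the most variable for their level. Dbp (0.45, above 2.68%) and Clock (0.17, above 8.78%) were the least. The highest library of the 9 exceeded the lowest 25.9-fold for Per2, 11.8-fold for Cry2 and 8.31-fold for Per3, against 4.26-fold for Dbp, 2.42-fold for Nr1d1 and 1.69-fold for Clock, with a median of 2.83-fold over all genes.

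**Figure D5:**
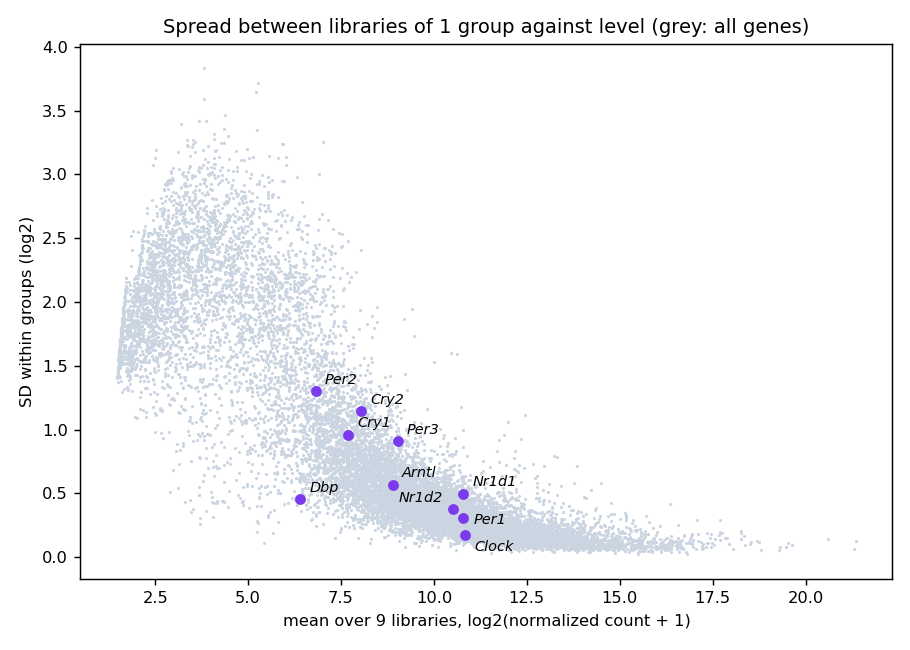
SD within groups (vertical axis, log2 scale) against the mean over the 9 libraries (horizontal axis, log2 of normalized count plus 1) for all 14905 genes (grey) and the 10 clock genes (purple). Per3, Nr1d1 and Cry2 sit high for their level, and Dbp (SD 0.45) sits low beside genes of like level, whose median SD is 1.33.

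Divided by exonic length, Nr1d1 was the highest member at 599 ± 178 normalized counts per kilobase over the 9 libraries (SD). Per1 (319 ± 75.2) and Nr1d2 (278 ± 72.8) came next and did not differ beyond their spread, and Clock followed at 135 ± 24.0. Below Clock, whose range of mean ± SD met that of Cry1, the order was Cry1 (73.5 ± 44.3), Arntl (66.5 ± 23.0), Per3 (62.9 ± 28.0), Cry2 (49.7 ± 25.0), Dbp (30.3 ± 13.9) and Per2 (27.4 ± 21.3), and no neighbours among these differed beyond their spread. The steps between Nr1d1 and Per1 and between Nr1d2 and Clock exceeded the SDs. In mm10 the other members span 69095217 to 69109960 on chromosome 11 (Per1), 91415982 to 91459324 on chromosome 1 (Per2), 151003652 to 151044665 on chromosome 4 (Per3), 85131700 to 85185064 on chromosome 10 (Cry1), 92403646 to 92434043 on chromosome 2 (Cry2), 76209868 to 76304792 on chromosome 5 (Clock), 18204054 to 18239127 on chromosome 14 (Nr1d2) and 45705088 to 45710203 on chromosome 7 (Dbp). Exonic lengths are unions of GENCODE exons, and the annotation behind the deposited counts is not given in the sources used here.

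Of 27 further symbols of the clock pathway, 1 of them an older name of Noct, 24 were in the table and 0 of 24 passed in limma, with 4 at an unadjusted p under 0.05 (9.14% of all genes) and 3 in limma-voom. Of the 24, 12 lay above 0 and 12 below, with a median log2 difference of 0.03. Among 4 paralogues and ROR-family activators, Rora, which switches Arntl on at the site that NR1D1 blocks, averaged 1208 ± 297 in KO libraries and 703 ± 271 in WT libraries (log2 difference 0.83, limma's adjusted p = 0.31). It was 1.18 in the 6 deeper libraries. Npas2, a stand-in for CLOCK, had 255 ± 105 in KO libraries and 193 ± 107 in WT libraries (log2 difference 0.48, limma's adjusted p = 0.83), and its difference was 0.14 without WT replicate 3 and 0.79 without WT replicate 4.

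Among 6 further repressors, Bhlhe40 (DEC1), which competes for E-boxes, averaged 15938 ± 2893 in KO libraries and 13171 ± 653 in WT libraries (limma's adjusted p = 0.51), and Timeless 381 ± 73.1 in KO libraries and 532 ± 139 in WT libraries (limma's adjusted p = 0.73). The PAR bZIP genes Tef and Hlf, relatives of Dbp, had log2 differences of 0.50 and 1.56 (limma's adjusted p = 0.74 and 0.79), with Hlf at the floor of 1 in 2 of 9 libraries. Tef was at 0.79 without KO replicate 1 and 0.28 without WT replicate 3, and Hlf at 2.62 without KO replicate 1, 2.63 without WT replicate 2 and 0.65 without WT replicate 4. Among 7 genes of kinases, ligases and their partners that set the stability of PER and CRY proteins, log2 differences lay between -0.13 and 0.38, those of Btrc (0.38, limma's adjusted p = 0.65) and Csnk1d (0.19, limma's adjusted p = 0.78) having the smallest p. Csnk1d was at 0.090 without KO replicate 5 and 0.30 without WT replicate 4.

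Among 5 output genes, Klf9, a Krüppel-like factor that glucocorticoids also induce, averaged 2717 ± 567 in KO libraries and 1915 ± 145 in WT libraries (limma's adjusted p = 0.30), and was the only one of the 34 clock-pathway genes whose KO and WT ranges did not overlap, beside 3.15% of all genes. Nampt, the rate-limiting enzyme of NAD+ salvage, had 9536 ± 483 in KO libraries and 15598 ± 7198 in WT libraries (limma's adjusted p = 0.31). The 2 shallower WT libraries were the highest, at 25288 and 16845, while the shallower KO replicate 5 was at 9362. The log2 difference of -0.60 ran from -0.79 to -0.33 with 1 library left out, the latter without WT replicate 3. It was -0.08 within the 6 deeper libraries, where WT replicates 1 and 2 are the only WT libraries.

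Genes of the signals that reset Per1 and Per2 were read in the same libraries. Of 8 immediate-early genes 0 passed, 7 lay above 0, beside 52.4% of all genes, and 5 were higher at an unadjusted p under 0.05, beside 5.37% of all genes. The smallest p was that of Fos, at 82839 ± 12648 in KO libraries and 57087 ± 11218 in WT libraries (log2 difference 0.54, limma's adjusted p = 0.089). Per1 and Per2 stood on the other side of 0 in the same libraries (-0.44 and -1.52), as did Junb among the immediate-early genes (-0.16). Of 4 glucocorticoid-induced genes 0 passed and 4 lay above 0, from 0.02 for Sgk1 to 0.99 for Fkbp5, which encodes a chaperone of the glucocorticoid receptor. Fkbp5 had 1240.5, 1165, 875, 1285 and 1466 normalized counts in KO replicates 1 to 5, against 380.3, 362, 812 and 1144 in WT replicates 1 to 4 (limma's adjusted p = 0.30). WT replicates 1 and 2 were the low libraries, and the part of these signals in the clock values was not tested.

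The 5 genes whose pattern over the 9 libraries was most like that of Dbp, among 7290 genes at or above the median level, were Phykpl (r = 0.94), Hp (0.92), Dusp8 (0.91), Elovl5 (0.91) and Saa3 (0.91). None of the 5 is in the clock lists. With 9 libraries and 7290 candidates these values are a description only. Among the clock-pathway genes at that level, the highest were Csnk1d (0.81) and Bhlhe40 (0.77), while Nr1d1 stood at -0.27 and Ciart at -0.22.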

How the data were processed

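Poly(A) RNA of the sorted macrophages went into strand-specific libraries, per the labels' protocols. CASAVA 1.8.2, HISAT, Partek, mm10 and DESeq2 appear in the submitters' processing notes, without their roles. Each deposited value is a signal, a normalized count on a linear scale with values under 1 set to 1. That values are reads over 1 factor per library was read from the values, 99.5% to 99.7% of which above 1 were whole multiples of 1 step within 0.1 of a step. Because of the floor the main test was not a count model, and limma-voom on reads worked out from the spacing was an alternative only. Depth was 51148956 to 85200105 reads, and library correlations across genes lay between 0.884 and 0.915.

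The main test was limma 3.58.1 (R 4.3.3) with a mean-variance trend on log2(value + 1), genotype as the only term, all 9 libraries, Benjamini-Hochberg adjusted over 14905 genes at 0.05. A value of at least 1 in 4 libraries was required, which could remove no gene because values are floored at 1. Pair correlations used exact permutations in NumPy 2.4.6, whose p is only approximate for deviations from the group means. Deviations of same-numbered KO and WT replicates had an r between -0.02 and 0.02, and the main test did not treat the numbers as pairs. Whether libraries of the same number shared a day or batch was not tested. The named genes are the 10 members, up to 2 genes per role of a further clock list with the smallest p, the resetting genes, Nucb2 and the 5 genes most like Dbp. Members and lists were chosen with earlier results of these data known. Sphk2 and Camta1 were added as overlapping genes after the annotation was read, and Ciart and the other genes of the likeness comparison after their values were seen. Positions are from GENCODE M21. The code was tested on simulated data. Alternatives were other pseudocounts, filters, scalings, weights, depth terms, limma-voom, a replicate block, each library left out, and single-gene permutation tests added after seeing the data.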

Additional observations from a re-analysis of the deposited data

Results flagged for a closer look

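WT replicate 2 stood apart from the other WT libraries for Dbp, at 43.4 normalized counts against 67.6 to 72.1, a gap of 0.845 of the group's range. KO replicate 4 stood apart from the other KO libraries for Nampt, at 10373 normalized counts against 9127 to 9427, a gap of 0.759 of the range. These were 2 of 42 groups examined (21 genes), and chance alone sets apart about 1 group in 20.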

How the results depend on the processing

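No clock gene passed in any of the 20 alternative fits, including those that left out 1 library (0 to 0 of 10), and the lowest adjusted p among them was 0.41. The further clock-pathway genes likewise had 0 calls in each. Of these fits, the one without a filter repeats the main fit, because the floor of 1 lets every gene pass. Median-ratio scaling used factors of 0.998 to 1.001, so it nearly repeats the main fit. Over the whole table the count was 46 (27 higher, 19 lower), 32 by limma-voom (12 higher, 20 lower), and 0 with the replicate block, which drops KO replicate 5, and 0 in the 6 deeper libraries, where fewer samples entered. It ran from 5 to 38 when 1 library was left out. Of the 10 members 5 turned direction under some alternative, without a call: Per3, whose difference over all libraries was 0.94, and Cry2, Arntl, Nr1d1 and Nr1d2, whose differences lay between -0.02 and 0.06. In the deeper libraries alone the log2 differences were -0.027 for Per3, -0.0034 for Cry2, -0.10 for Nr1d1 and 0.22 for Nr1d2. Quantile normalization gave -0.044 for Cry2 and -0.057 for Arntl, the replicate block -0.067 for Cry2 and 0.011 for Nr1d2, depth class as a term -0.12 for Arntl and 0.035 for Nr1d2, and limma-voom 0.020 for Nr1d2. Leaving out 1 library gave -0.23 to 0.66 for Cry2, -0.16 to 0.23 for Arntl, -0.13 to 0.25 for Nr1d1 and -0.17 to 0.14 for Nr1d2. Nucb2 was -1.58 with the block (adjusted p = 0.052) and -1.61 in the deeper libraries (adjusted p = 0.12). The correlation of Arntl with Dbp was 0.24 in the deeper libraries and -0.33 to 0.25 with 1 library left out. That of Dbp with Per3 was -0.056 after quantile normalization, -0.32 on deviations from the group means, -0.46 in the deeper libraries and -0.030 to 0.40 with 1 left out. The cause of these turns was not tested. The block is a shared number only, and 2 of 4 pairs correlated best with their own number. Among the members the coefficient of variation from counting error alone was largest for Dbp (10.4%) and Per2 (8.06%). It lay below the spread among libraries, which was 39.6% in KO and 21.1% in WT for Dbp and 81.5% and 56.6% for Per2. Beside genes of like level, the SD within groups was above 2.68% of them for Dbp and 62.9% for Per2.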
